A study of Mus musculus with 12 samples.

Results

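The genes described here make cholesterol and long-chain fatty acids, sense sterol, or carry sterol into and out of the cell. They are a list of 32 genes chosen by pathway, with earlier results of these data known, of 18193 genes with a probe set of their own. Where a gene had several probe sets naming it alone, the brightest on average stood for it. Of the 32, 31 had such a probe set, all 31 passed the filter on low values that left 15420 genes for testing, and Acat2 was not analysed here. RNA came from 4 groups of mouse cells, with 3 Affymetrix arrays in each. The wild-type leukaemias and the knockout leukaemias were T-cell acute lymphoblastic leukaemias driven by Notch1, without and with deletion of MBD2, a protein that binds methylated DNA. They had been transplanted, and GFP+ bone marrow cells were sorted from the recipients once more than 50% of white blood cells in the blood were GFP+. The rest were CD4+CD8+ thymocytes sorted from steady-state mice, again without and with the MBD2 deletion, and they carried no leukaemia. The labels used here give no age, sex or strain and do not tell how the deletion was made, nor do they say whether the leukaemias of a group came from separate donors, so the spread between arrays may be technical.

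Cholesterol is built from acetyl-CoA. The mevalonate arm makes isoprenoid units, the next enzymes join them into squalene and fold it into lanosterol, and a longer series trims lanosterol to cholesterol. The transcription factor encoded by Srebf2 turns on most of these enzymes, and the factor encoded by Srebf1 favours fatty acid synthesis. SCAP escorts both factors to the Golgi for activation when sterol is low, and the INSIG proteins hold them back when sterol is plentiful. Proliferating T cells are known to depend on this pathway for new membrane, and the pumps encoded by Abca1 and Abcg1 export cholesterol.

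The Mbd2 transcript followed the labels, at an intensity of 820 ± 119 (SD, n = 3) in wild-type and 54.4 ± 12.4 in knockout leukaemias, and at 1136 ± 206 and 72.1 ± 10.7 in the thymocytes. Of 7 measured T-cell markers 0 were at background in any group, and 1 was lower in the knockout leukaemias, Thy1 at 1186 ± 294 against 6100 ± 173 in the wild-type leukaemias. Of 9 markers of CD4+CD8+ thymocytes, 6 were lower and 1 higher in the knockout leukaemias, among them Cd8b1 at 62.3 ± 33.2 against 3632 ± 1107, Ptcra at 31.6 ± 7.99 against 1583 ± 183 and Dntt at 4003 ± 908 against 1350 ± 456. Their sum ranged from 11101 to 12917 in wild-type and from 4146 to 5480 in knockout leukaemias, and from 41076 to 54764 in the thymocytes, while Ptcra alone was at 381 ± 44.8 in wild-type thymocytes. Summed neutrophil markers ranged from 1136 to 2027 in wild-type and from 268 to 915 in knockout leukaemias, and summed monocyte and macrophage markers from 335 to 349 and from 281 to 343. Of 5 tested erythroid markers 2 were lower in the knockout leukaemias, with sums from 191 to 310 in wild-type and from 187 to 213 in knockout. Of 8 adipocyte and stroma markers, 8 were at background in wild-type and 7 in knockout leukaemias, where background means below 35.3, the highest signal of a control without a target. Their part in the results below was not tested. Xist, expressed from the inactive X chromosome, was at 4193 ± 543 in wild-type leukaemias and at 36.5 ± 4.36 in knockout leukaemias, and the Y-linked Eif2s3y was at 7.31 ± 0.29 and 519 ± 51.5, so the sex of the cells and the genotype cannot be told apart in the leukaemias. Xist was at 35.4 ± 9.07 in wild-type thymocytes, so sex cannot be told apart from cell type in the wild-type cells either. Controls added to the RNA before labelling gave signal on 5 of 12 arrays, namely replicates 1 and 2 of the wild-type leukaemias and of the wild-type thymocytes, and replicate 1 of the knockout leukaemias. The ratio of Gapdh signal at the 3' to the 5' end, which rises as RNA is degraded, was 0.964 to 1.14 on those arrays and 1.12 to 3.68 on the rest.

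Between the leukaemias, 14 of the 31 genes were lower in the knockout and 3 were higher. The 14 were the enzymes Hmgcs1, Mvk, Pmvk, Idi1, Sqle, Lss, Cyp51, Nsdhl and Dhcr7, the regulators Srebf2 and Insig1, and the fatty acid enzymes Fasn, Acaca and Scd1. Insig2, Abcg1 and Elovl6 were higher. All 17 enzymes of cholesterol synthesis had a difference below 0, with a median of −0.80 on the log2 scale, against −0.06 over all genes tested. By limma with Benjamini-Hochberg adjustment over all genes, at an adjusted p under 0.05, 6.98% of all genes tested were lower and 9.19% were higher. Over all 31 genes the median was −0.78. In 17 genes every knockout array lay below every wild-type array and in 4 every knockout array lay above, Abca1, below background in both groups, among the 4, while 33.4% of all genes tested had groups that did not overlap in either direction.

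**Figure D1:**
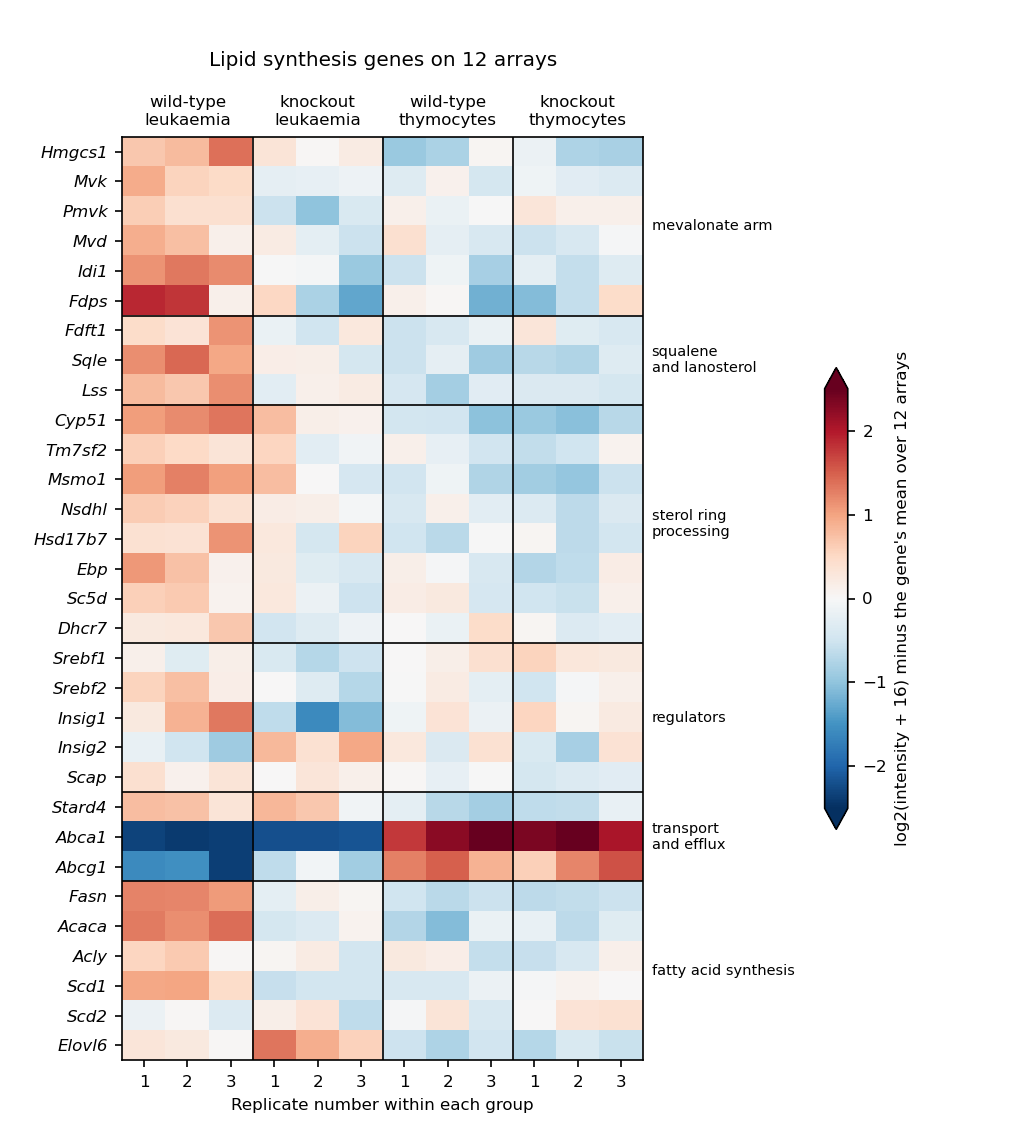
Expression of the 31 genes (rows, ordered by role) on the 12 arrays (columns, 3 per group), as log2(intensity + 16) minus each gene's mean over the 12 arrays; red is above and blue below that mean, and colours stop at the ends of the scale. The sterol enzymes and most fatty acid enzymes are red in the wild-type leukaemias, and Abca1 and Abcg1 are blue there and red in both thymocyte groups.

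The factor encoded by Srebf2 is known to bind sterol regulatory elements close to start sites, often beside CCAAT boxes bound by NF-Y, so the 250 bases before the start were searched on both strands in RefSeq's promoter windows (GRCm38.p6). Windows were matched for 25 of the 32 genes by symbol, and Fdps, Fdft1, Sqle, Stard4, Abcg1, Scd1 and Scd2 had none matched. The sterol element TCACNCCAC was found in 1 of the 25, Hmgcs1, and in 1.05% of all 32851 windows. CCAAT was found in 20 of 33 windows of 19 genes, and in 33.8% of all windows. It was present in 11 of 12 genes with a window that were lower in knockout leukaemias, in 1 of 2 that were higher, and in 7 of 10 that did not pass the test. Here a gene counted if any of its windows matched. The share of all genes was not counted in this way, so these counts cannot be set against the 33.8% of windows. A match to these letters is not a binding site, and no match says only that the letters are not in the window. The stretches below are from the 6 genes with CCAAT and the smallest p between the leukaemias, and from Hmgcs1, which was added after its sterol element was seen. Capitals mark CCAAT or its reverse complement ATTGG, and in Hmgcs1 also the sterol element, each 5′ to 3′ in the direction of the gene.
Fasn: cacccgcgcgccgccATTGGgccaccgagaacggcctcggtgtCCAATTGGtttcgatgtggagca
Pmvk: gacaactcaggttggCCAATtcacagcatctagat
Idi1: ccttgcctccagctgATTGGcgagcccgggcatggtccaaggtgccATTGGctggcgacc
Mvk: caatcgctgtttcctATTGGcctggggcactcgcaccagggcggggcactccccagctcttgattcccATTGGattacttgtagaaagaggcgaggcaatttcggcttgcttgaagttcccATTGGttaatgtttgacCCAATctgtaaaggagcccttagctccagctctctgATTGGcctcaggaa
Insig1: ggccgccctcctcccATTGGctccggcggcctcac
Insig2: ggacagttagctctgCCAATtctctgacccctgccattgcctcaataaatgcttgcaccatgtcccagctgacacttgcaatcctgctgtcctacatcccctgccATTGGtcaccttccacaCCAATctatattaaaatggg
Hmgcs1: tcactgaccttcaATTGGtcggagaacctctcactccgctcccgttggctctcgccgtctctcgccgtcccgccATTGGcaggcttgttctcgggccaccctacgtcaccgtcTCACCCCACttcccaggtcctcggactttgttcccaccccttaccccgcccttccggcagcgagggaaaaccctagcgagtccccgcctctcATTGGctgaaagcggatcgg

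The Fasn stretch lies at chr11:120824587-120824652 on the minus strand, 105 to 40 bases before the start, and its last 2 matches overlap. The Mvk stretch, with 5 matches, lies at chr5:114444081-114444268 on the plus strand, 188 to 1 bases before the start. For Idi1 it is chr13:8885546-8885605 on the plus strand, 60 to 1 bases before the start, with 2 matches. Pmvk has a single match within chr3:89454390-89454424 on the plus strand, 151 to 117 bases before the start. Insig1 also has a single match, within chr5:28071181-28071215 on the plus strand, 231 to 197 bases before the start. In Insig2, which was higher in the knockout, 3 matches lie within chr1:121332599-121332740 on the minus strand, 151 to 10 bases before the start, in the most upstream of its 3 windows, and the other windows hold none. The Hmgcs1 stretch is chr13:119690101-119690325 on the plus strand, 250 to 26 bases before the start. Its sterol element, TCACCCCAC, begins 137 bases before the start, between 2 of its 3 CCAAT matches.

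In the mevalonate arm, 4 of 6 measured enzymes were lower in knockout leukaemias, against 6.98% of all genes tested, and the median difference was −0.98. Idi1, which isomerises the isoprenoid unit, read 636, 730 and 663 in wild-type and 279, 270 and 140 in knockout leukaemias. The groups did not overlap, and the log2 difference was −1.55 (SE 0.25, adjusted p = 0.0067). Pmvk, the second kinase of the arm, read 331, 280 and 281 against 140, 95.5 and 156, a difference of −1.12 (SE 0.18, adjusted p = 0.0062). Its knockout leukaemias were also below every thymocyte array, the lowest of which read 186. Mvk, the first kinase, read 235, 177 and 166 against 97, 97.5 and 104 (log2 −0.84, SE 0.14, adjusted p = 0.00787). The 3 knockout arrays lay close together, within the range of the thymocytes. Hmgcs1, the synthase that opens the arm, read 1255, 1352 and 2055 against 983, 791 and 900 (log2 −0.76, SE 0.20, adjusted p = 0.0452). The highest wild-type array was replicate 3, and the fall was the smallest of the 4.

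Fdps, which makes farnesyl diphosphate, and Mvd, the decarboxylase before Idi1, did not pass. Fdps read 1152, 1072 and 331 in wild-type and 434, 167 and 113 in knockout leukaemias, a difference of −1.79 (SE 0.60, adjusted p = 0.0974). Its groups overlapped, because the third wild-type array was far below the rest of its group. The Gapdh ratio was 0.969, 1.02 and 2.48 on those wild-type arrays and 0.964, 2.00 and 2.98 on the knockout arrays, so within each group Fdps was lowest on the array with the highest ratio. The same held in all 4 groups for Mvd, Ebp, Srebf2, Stard4, Abcg1, Acly and Scd2, while Fdft1, Hsd17b7, Dhcr7 and Acaca were highest on that array in all 4 groups. With this ratio as a covariate the Fdps difference was −1.30 (adjusted p = 0.000417). It was −1.33 on the 3 leukaemia arrays with signal from the added controls and −1.18 on the 3 without. Mvd had a difference of −0.79 (SE 0.26, adjusted p = 0.0895), and its other probe set one of −0.85 (adjusted p = 0.0119 in a fit over all single-gene probe sets).

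All 3 enzymes that lead from farnesyl diphosphate to lanosterol had groups that did not overlap, as had 33.4% of all genes tested, in either direction. Sqle, the epoxidase and a rate-controlling step, read 656, 794 and 568 in wild-type and 318, 314 and 204 in knockout leukaemias. Every knockout array was under every wild-type array, and Sqle fell by 1.24 on the log2 scale (SE 0.20, adjusted p = 0.0073). Lss, which closes the ring to lanosterol, read 336, 306 and 437 against 154, 207 and 219 (log2 −0.84, SE 0.18, adjusted p = 0.021). The other 2 Lss probe sets gave −0.15 and −0.08 and did not pass. Fdft1, the squalene synthase, read 454, 414 and 728 against 287, 224 and 395, and its difference of −0.78 did not pass (SE 0.27, adjusted p = 0.105). Another Fdft1 probe set gave −0.80 (adjusted p = 0.0248), and 2 more gave −0.19 and −0.03.

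Among the 8 enzymes that process the sterol ring, 3 passed, all lower in knockout leukaemias, where 6.98% of all genes tested were lower. Cyp51, the lanosterol demethylase, read 230, 255 and 286 in wild-type and 187, 116 and 113 in knockout leukaemias (log2 −0.85, SE 0.19, adjusted p = 0.0274). Dhcr7, which carries out the last reduction in one branch, read 782, 789 and 1057 against 467, 526 and 597 (log2 −0.70, SE 0.16, adjusted p = 0.0252). In both genes the groups were apart. Nsdhl, a decarboxylating dehydrogenase, read 356, 342 and 295 against 256, 247 and 215 (log2 −0.44, SE 0.12, adjusted p = 0.0479), the smallest fall of any enzyme that passed. Nsdhl and Ebp lie on the X chromosome, and sex moved with genotype here; its part in their values was not tested. The differences of Tm7sf2, Msmo1, Hsd17b7, Ebp and Sc5d ranged from −0.98 for Msmo1 (SE 0.29, adjusted p = 0.0627) to −0.42 for Tm7sf2 (SE 0.22, adjusted p = 0.262). None of the 5 passed, and Msmo1 was the only one whose groups did not overlap.

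The regulators moved in different directions. Insig1, itself a target of the sterol-regulated factors, read 322, 510 and 696 in wild-type leukaemias and 168, 79.2 and 120 in knockout leukaemias. The wild-type arrays were widely spread but stayed above every knockout array, and Insig1 fell by 1.91 on the log2 scale (SE 0.33, adjusted p = 0.00898). Insig2, its paralogue, read 207, 164 and 122 against 428, 314 and 482 (log2 1.24, SE 0.22, adjusted p = 0.0106). The knockout arrays were all higher, and its 2 other probe sets gave 1.51 and 1.58 (adjusted p = 0.00198 and 0.00113). Srebf2 read 598, 686 and 456 against 406, 321 and 241 (log2 −0.83, SE 0.22, adjusted p = 0.0484). Its second probe set gave −0.78 (adjusted p = 0.0213). Srebf1 read 752, 552 and 757 against 520, 414 and 472, and did not pass (log2 −0.53, SE 0.16, adjusted p = 0.068). Scap had a difference of −0.13 (SE 0.13, adjusted p = 0.566), with overlapping groups.

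Of the transport genes, Abcg1 was higher in knockout leukaemias. It read 197, 204 and 109 in wild-type and 398, 597 and 335 in knockout leukaemias (log2 1.31, SE 0.29, adjusted p = 0.0232). A second Abcg1 probe set gave 0.64 and did not pass. Abca1 lay between 7.69 and 11.9 on all 6 leukaemia arrays, below background, so no fold is given. Stard4, a carrier that moves sterol within the cell, depended on the probe set. The brightest of its 3 read 429, 416 and 310 against 447, 398 and 230 (log2 −0.14, SE 0.26, adjusted p = 0.79), with full overlap. Another, whose identifier ends in _a_at, read 331, 299 and 314 against 143, 96.3 and 112 (log2 −1.33, SE 0.14, adjusted p = 0.00176), with groups far apart. The third gave −0.30 (adjusted p = 0.38). All 3 carry the same gene name, and which transcript each reads was not tested.

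**Figure D2:**
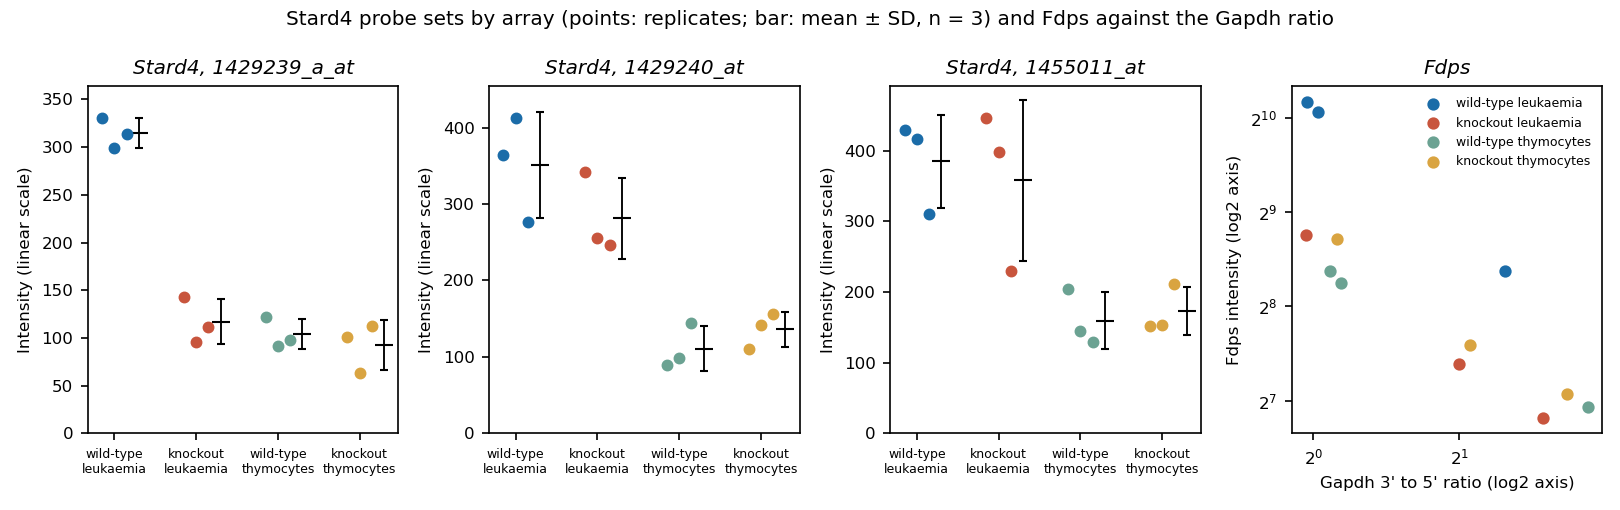
Left, intensity of the 3 Stard4 probe sets on each array (points, 3 per group; bars, mean ± SD); right, Fdps intensity against the Gapdh 3' to 5' ratio on both log2 axes, 1 point per array. Only the probe set ending in _a_at separates the leukaemia genotypes, and Fdps is lowest where the ratio is highest within each group.

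The 3 smallest adjusted p among the 31 genes belonged to fatty acid enzymes. Fasn, the synthase, read 1116, 1105 and 988 in wild-type and 386, 513 and 482 in knockout leukaemias. The lowest wild-type array was above the highest knockout array by a wide margin, and Fasn fell by 1.20 on the log2 scale (SE 0.13, adjusted p = 0.00128). Acaca, which makes malonyl-CoA for it, read 723, 653 and 771 against 207, 222 and 302 (log2 −1.51, SE 0.16, adjusted p = 0.00096). Scd1, a desaturase, read 77.5, 78.7 and 49.6 against 15.8, 18.5 and 18.5 (adjusted p = 0.00201). Its knockout arrays were all below background, so the wild-type level was at least 1.9-fold higher. Elovl6, which lengthens palmitate, went the other way, at 236, 228 and 194 against 505, 371 and 290 (log2 0.75, SE 0.20, adjusted p = 0.0463). A second Elovl6 probe set gave 0.50 (adjusted p = 0.0458). Acly, which supplies acetyl-CoA, and Scd2, a second desaturase, did not pass, at −0.48 (SE 0.23, adjusted p = 0.231) and 0.10 (SE 0.26, adjusted p = 0.849).

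**Figure D3:**
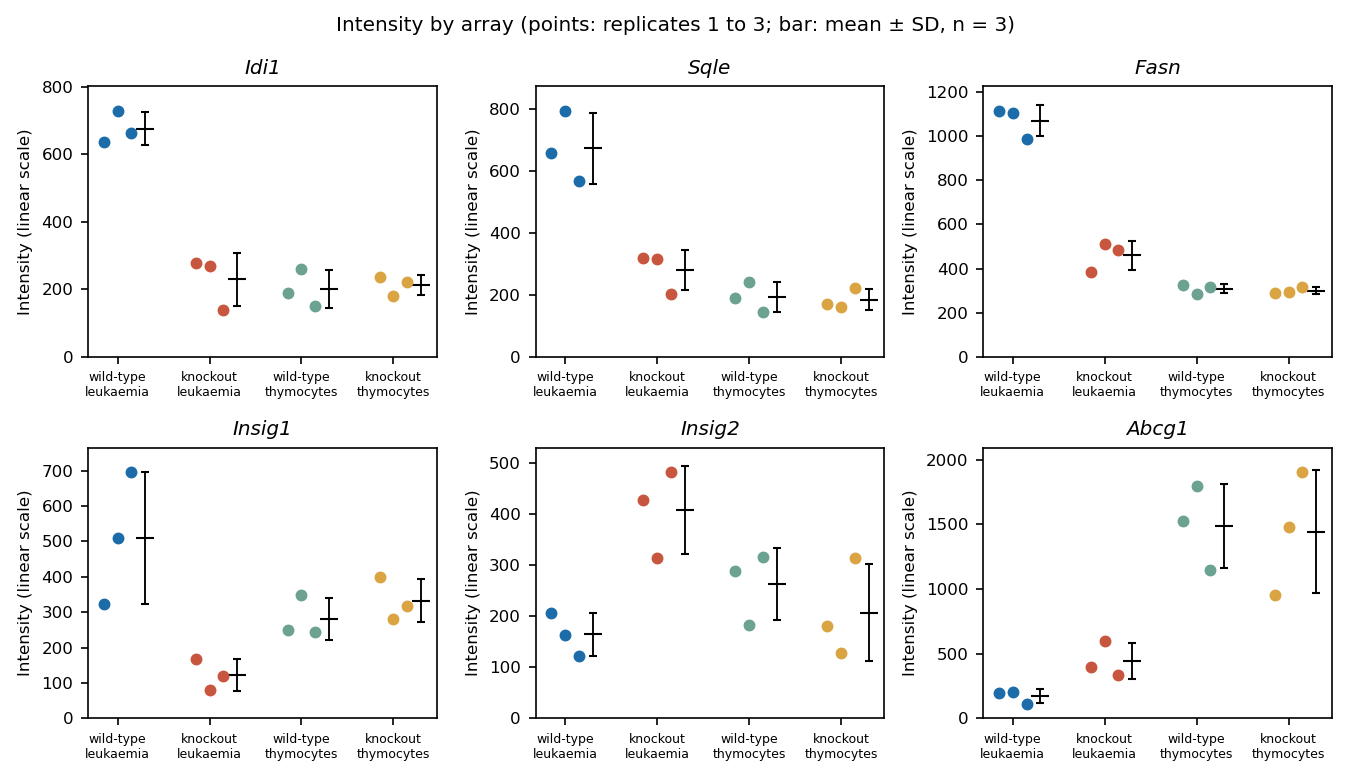
Intensity on a linear scale of 6 genes on every array (points, replicates 1 to 3 from left to right in each group; bars, mean ± SD, n = 3). Idi1, Sqle, Fasn and Insig1 are lower, and Insig2 and Abcg1 higher, on all 3 knockout leukaemia arrays than on any wild-type leukaemia array.

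The number of genes past the threshold depended on single arrays. Without wild-type leukaemia replicate 1, 8 were lower and 1 higher; without wild-type replicate 2, 10 and 0; without knockout replicate 1, 13 and 1; and without knockout replicate 2, 9 and 1. Of all genes 607, 535, 886 and 757 were lower in these 4 fits. How many of all genes were higher in them is not given here, so the counts of higher genes show only that calls depended on single arrays. On the 3 leukaemia arrays without signal from the added controls, 1 wild-type and 2 knockout, limma called 0 of 31, and 0 of all genes. At an unadjusted p under 0.05, 15 were lower and 2 higher, against 13.2% of all genes in either direction, and all 17 sterol enzymes were again below 0. On the 3 with that signal, 2 wild-type and 1 knockout, 15 were lower and 3 higher, against 9.63% and 11.0% of all genes. Both of these fits have 1 residual degree of freedom, and the lone array is assumed to vary like the other group. Equal replicate numbers deviated together between the leukaemias, and with the replicate number as a block 22 genes were lower and 3 higher, against 12.6% and 12.5% of all genes. The block added Mvd, Fdps, Fdft1, Msmo1, Ebp, Sc5d, Srebf1 and Acly, with adjusted p from 0.00355 to 0.0249. Beside the chosen probe sets, 36 others of these genes were tested, and 33 had the sign of the chosen one. Of the others, 17 belonged to genes that passed between the leukaemias. All 17 had the same sign, and 5 of them passed. No other probe set of Hmgcs1, Mvk or Cyp51 passed by limma (adjusted p from 0.0904 to 0.289). In that fit of 28372 probe sets, where 12.9% passed, the chosen probe sets of Hmgcs1, Nsdhl, Srebf2 and Elovl6 had adjusted p from 0.0563 to 0.0599.

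In the thymocytes none of the 31 genes differed between the genotypes by limma. At an unadjusted p under 0.05 there were 1 higher, Scd1, and 1 lower, Scap, against 4.68% of all genes in either direction. Scd1 was below background in both groups. These were also the only 2 of the 31 whose groups did not overlap, against 8.64% of all genes tested. Of all 15420 genes, 0.0195% were higher and 0.0130% lower at an adjusted p under 0.05. The median difference was −0.05 over the 17 sterol enzymes, with 12 below and 5 above 0; with arrays quantile normalized it was 0.02, with 8 below. Fasn read 324, 286 and 316 in wild-type and 288, 296 and 316 in knockout thymocytes, a difference of −0.04 (95% interval −0.27 to 0.19). Insig1 read 250, 348 and 243 against 399, 282 and 318 (interval −0.18 to 0.66). Their groups overlapped. The widest interval was that of Fdps, from −1.17 to 1.06, and Insig2 had one from −1.14 to 0.39. With 3 arrays a group, changes within those intervals are not excluded.

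**Figure D4:**
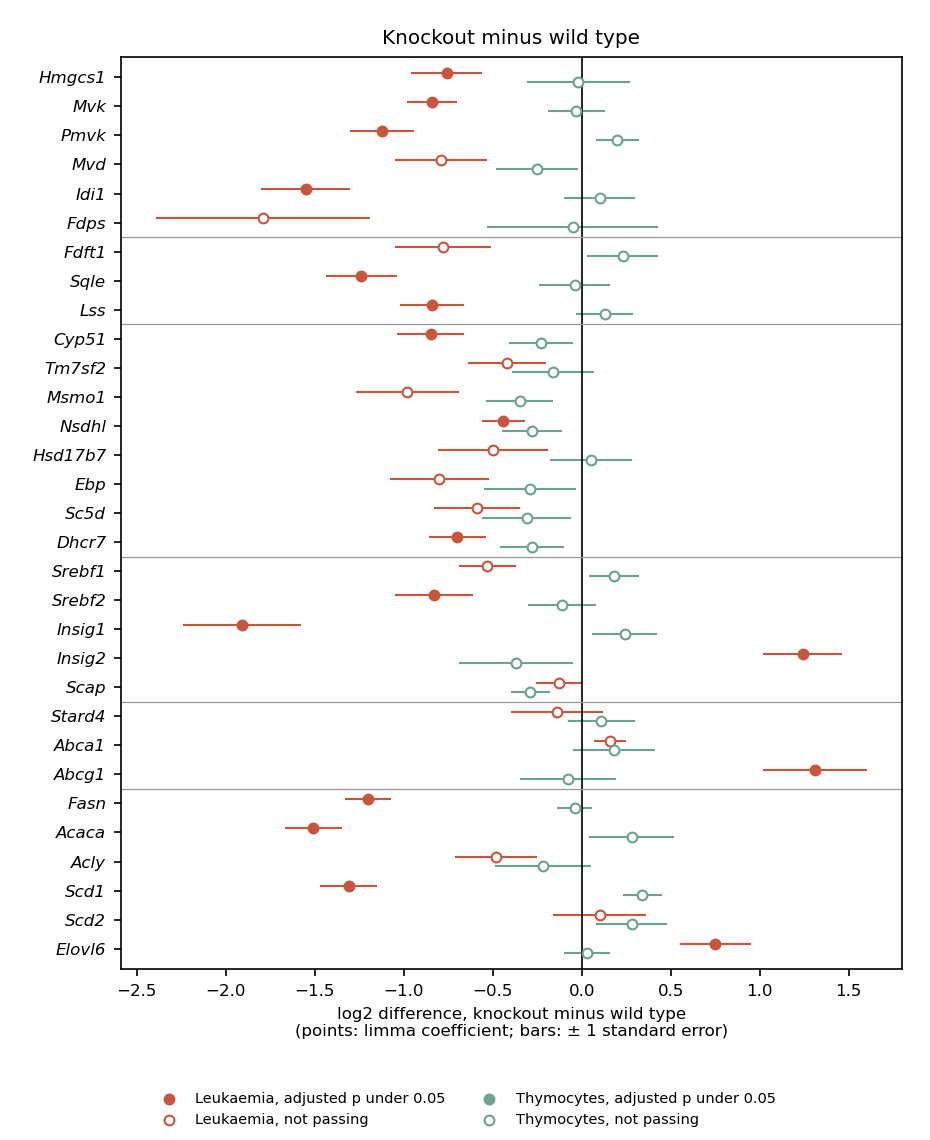
Difference between knockout and wild type in leukaemia (red) and in thymocytes (green) for the 31 genes, on the log2(intensity + 16) scale; points are limma coefficients, bars are 1 standard error, and filled points passed an adjusted p under 0.05. In the leukaemias 14 filled points lie left of 0 and 3 right of it, and none of the thymocyte points is filled.

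Whether the genotype effect in leukaemia differed from that in thymocytes was itself tested, with all 12 arrays fitted together. Xist was at 4193 ± 543 in wild-type leukaemias, 36.5 ± 4.36 in knockout leukaemias, and 35.4 ± 9.07 and 39.7 ± 3.14 in wild-type and knockout thymocytes. Sex therefore cannot be told apart from this difference of effects either, which rests on the same wild-type leukaemia arrays as the comparisons above. The test passed for 10 of 31 genes, 9 lower and 1 higher in leukaemia than in thymocytes, against 4.74% and 7.86% of all genes tested. The 9 were Mvk, Pmvk, Idi1, Sqle, Lss, Insig1, Fasn, Acaca and Scd1, and the 1 was Insig2. Scd1 was below background in 3 of the 4 groups, so its difference has no measured size. The largest was Insig1 at −2.15 (SE 0.41, adjusted p = 0.00442). Acaca followed at −1.78 (SE 0.31, adjusted p = 0.00248), and Fasn, with −1.16, had the smaller error (SE 0.16, adjusted p = 0.000519). Insig2 was at 1.61 (SE 0.43, adjusted p = 0.0311), and its adjusted p was between 0.0612 and 0.0757 without wild-type leukaemia replicate 2 or 3, knockout leukaemia replicate 1 or 3, wild-type thymocyte replicate 1 or 3, or knockout thymocyte replicate 1 or 2. Its value over these ranged from 1.34 to 1.62. In the fit of all 12 arrays none of the 8 ring-processing enzymes passed, with a median of −0.46. On the 7 arrays without control signal, where each wild-type group has 1 array, which is assumed to vary like the rest, 3 genes were lower and 0 higher, against 1.22% and 2.75% of all genes. Hmgcs1, Dhcr7, Cyp51, Nsdhl, Srebf2, Abcg1 and Elovl6 passed between the leukaemias and not in the fit of all 12 arrays, so a difference between the cell types was not shown for them. Of all genes called, 62.4% were higher, and with arrays centred on their 75th percentile 52.1%.

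Against wild-type thymocytes, 17 of 31 genes were higher in wild-type leukaemias and 2 were lower. This comparison shares the wild-type leukaemias with the one between leukaemia genotypes, so it is given beside it and not as support for it. Of all genes tested, 19.7% were higher and 14.2% lower. All 17 sterol enzymes were above 0 and 12 passed, with a median of 1.01, against 0.06 over all genes. The largest of these was Cyp51, at 230, 255 and 286 in leukaemias and 70.9, 69.3 and 42.2 in thymocytes (log2 1.85, SE 0.18, adjusted p = 0.00031). Sqle read 190, 242 and 146 in the thymocytes, well below its leukaemia arrays (log2 1.74, SE 0.20, adjusted p = 0.000647). Acaca had a difference of 1.94 (SE 0.22, adjusted p = 0.000667) and Fasn one of 1.74 (SE 0.10, adjusted p = 4.71e-05). Elovl6, at 128, 105 and 131 in thymocytes, was also higher in the leukaemias (log2 0.77, SE 0.12, adjusted p = 0.00291). Scd1 was below background in the thymocytes, so its leukaemia level was at least 1.9-fold higher.

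The 2 that were lower were the cholesterol exporters. Abca1 read 9, 7.69 and 8.35 in wild-type leukaemias and 405, 577 and 691 in thymocytes. The leukaemia arrays were at background, so thymocytes were at least 15.5-fold higher (adjusted p = 1.41e-05). Abcg1 read 1525, 1795 and 1148 in the thymocytes, and its difference was −3.04 (SE 0.26, adjusted p = 0.000186). None of the 5 regulators passed, Insig1 being at 0.78 (SE 0.28, adjusted p = 0.0713) and Srebf2 at 0.51 (SE 0.18, adjusted p = 0.0709). Equal replicate numbers deviated together here too, and with the replicate number as a block 26 genes were higher and 3 lower, against 26.2% and 19.0% of all genes. The block added Mvd, Fdps, Ebp, Sc5d, Dhcr7, Srebf2, Insig1, Scap and Acly on the higher side and Insig2 on the lower, with adjusted p from 8.62e-05 to 0.0497. On the 4 arrays with signal from the added controls, 2 in each group, 23 were higher and 2 lower, against 21.5% and 15.6% of all genes. In bulk RNA, fewer cells of a type and less RNA per cell cannot be told apart.

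Between the knockout cells, 8 of 31 genes were higher in leukaemias than in thymocytes and 6 were lower, against 18.5% and 11.0% of all genes tested. The higher ones were Hmgcs1, Cyp51, Nsdhl, Insig2, Scap, Stard4, Fasn and Elovl6, and the lower ones Pmvk, Srebf1, Insig1, Abca1, Abcg1 and Scd1. Of the 17 sterol enzymes 3 were higher and 1 was lower, with a median of 0.23. With quantile normalization 2 of 31 were higher, Cyp51 and Elovl6, and 6 lower, against 14.9% and 15.2% of all genes, and 9 of the 17 enzymes were above 0 in place of 13. The share of higher genes among all genes called was 62.7%, 49.5% with quantile normalization and 46.6% with arrays centred on their 75th percentile, which moved the median of all genes from 0.01 to −0.17. Without knockout thymocyte replicate 2 there were 2 higher, and without knockout leukaemia replicate 1 or knockout thymocyte replicate 1 there were 5. The shares of all genes in these fits are not given here, so these counts show only that the calls depended on single arrays. On the arrays without control signal, 2 leukaemia and 3 thymocyte, 5 were higher and 6 lower, against 15.5% and 9.35% of all genes.

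Several genes were close in both knockout groups. Idi1 read 236, 180 and 222 in knockout thymocytes, around its knockout leukaemia arrays, a difference of 0.05 (95% interval −0.55 to 0.66). Acaca read 248, 174 and 227 there, a difference of 0.16 (interval −0.27 to 0.59), and Mvk had one of 0.06 (interval −0.18 to 0.31). Fasn was higher in the leukaemias at 0.58 (SE 0.13, adjusted p = 0.0133), and Elovl6 at 1.5 (SE 0.20, adjusted p = 0.00144). Elovl6 passed in all 22 alternatives and Fasn in 19, but not with quantile normalization (log2 0.42, adjusted p = 0.0791). Insig1 read 399, 282 and 318 in knockout thymocytes, above every knockout leukaemia array (log2 −1.37, SE 0.25, adjusted p = 0.00523). Srebf1 was lower in the knockout leukaemias as well, with 1008, 842 and 816 in the thymocytes (log2 −0.90, SE 0.13, adjusted p = 0.00215). Abca1 was at least 17.5-fold higher in the thymocytes, and Abcg1 had a difference of −1.65 (SE 0.29, adjusted p = 0.00504). Scd1 was below background in both groups, so its call carries no fold.

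**Figure D5:**
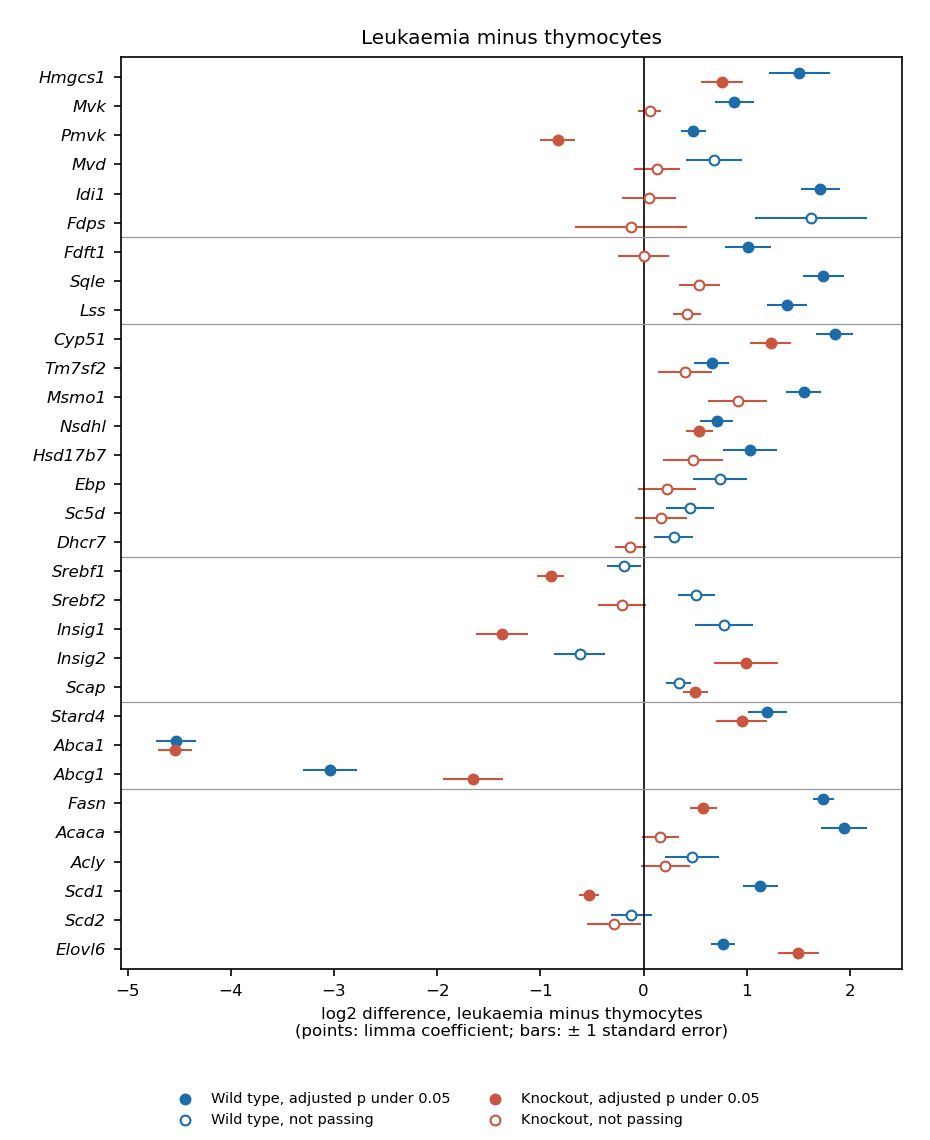
Difference between leukaemia and thymocytes in wild-type (blue) and knockout (red) cells for the 31 genes, on the log2(intensity + 16) scale; points are limma coefficients, bars are 1 standard error, and filled points passed an adjusted p under 0.05. Most sterol enzymes lie further right in wild type than in knockout, and Abca1, at background in the leukaemias, lies far left in both.

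Other genes of the same pathways divided between the directions. Of 25 further genes of sterol homeostasis that were tested, 4 were higher and 2 lower in knockout leukaemias, and 19 did not pass, with a median of 0.01, while 9.19% of all genes were higher and 6.98% lower. Lpin1, a phosphatidate phosphatase, read 139, 131 and 140 in wild-type and 458, 493 and 381 in knockout leukaemias (log2 1.58, SE 0.12, adjusted p = 0.000232). Mylip, whose product marks lipoprotein receptors for degradation, rose by 1.75 (SE 0.18, adjusted p = 0.00104), and Npc1, the lysosomal cholesterol exporter, by 1.36 (SE 0.16, adjusted p = 0.00188). Aacs, which feeds ketone bodies into lipid synthesis, was lower at −0.91 (SE 0.12, adjusted p = 0.00239). In wild-type leukaemias against wild-type thymocytes 7 of the 25 were higher and 6 lower, where 19.7% and 14.2% of all genes were, among them Mylip at −2.25, Lpin1 at −1.27 and Npc1 at −1.56.

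Of 28 further genes of fatty acid synthesis, 3 were higher and 4 lower between the leukaemias and 21 did not pass, with a median of −0.09, again beside 9.19% and 6.98% of all genes. Hacd2, a dehydratase of fatty acid elongation, read 3607, 2545 and 2790 in wild-type and 819, 343 and 565 in knockout leukaemias (log2 −2.41, SE 0.31, adjusted p = 0.00237). Acsl3, an acyl-CoA synthetase, fell by 1.79 (SE 0.20, adjusted p = 0.00143), and Mid1ip1, which promotes assembly of acetyl-CoA carboxylase, fell by 1.02 (SE 0.19, adjusted p = 0.0119). Fads2, a desaturase of polyunsaturated fatty acids, was higher at 0.73 (SE 0.11, adjusted p = 0.00613). Of 16 genes of fatty acid oxidation, the opposing pathway, 3 were higher and 2 lower, and 11 did not pass, with a median of −0.08, beside the same shares. Cpt1a, which admits fatty acids to mitochondria, read 1516, 1492 and 1514 against 2436, 3512 and 2396 (log2 0.85, SE 0.16, adjusted p = 0.0133), and Acadl, a long-chain dehydrogenase, was higher at 1.25 (SE 0.13, adjusted p = 0.00085). Acaa2, a thiolase, was lower at −0.71 (SE 0.12, adjusted p = 0.00739). Eci1, an isomerase, read 99.3, 89.9 and 103 in wild-type leukaemias and was below background on all 3 knockout arrays (adjusted p = 0.000144). In thymocytes 0 of the 25, the 28 and the 16 passed.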

How the data were processed

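The authors deposited linear intensities for 45101 probe sets, from 3.07 to 21620. How they summarized and normalized them is not given in the sources used here. Biotin cRNA was made from 7 µg of total RNA, per the labels. The platform annotation gave 34945 probe sets 1 gene, 932 several and 9160 none. No scaling was added, since array medians (log2) were 5.71 to 5.79. The number of arrays, 3 per group, limits the precision, and the smallest exact p of 3 against 3 is 0.1.

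Log2(intensity + 16) was compared by lmFit and eBayes of limma 3.58.1 (R 4.3.3), one fit per pair of groups, with Benjamini-Hochberg adjustment over 15420 genes and a threshold of 0.05. A gene was kept if 3 or more arrays read it higher than their 25th percentile. Log2 differences and folds are on this scale, which understates changes of dim genes. Bounds set a group at background to 35.3. All 31 measured genes are named, as are up to 4 genes of each further list with the smallest p. The genes, lists and tests were chosen with earlier results of these data known. Another 2 settings were settled after results had been seen, to match an earlier analysis of these data: the filter percentile, taken at first over genes, and the mean that picks a probe set, taken at first over linear values.

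The pairing of replicate numbers was checked by correlating samples after group means were taken off. Equal numbers gave r of 0.40, 0.24 and 0.55 for the leukaemia genotypes and 0.45, 0.44 and 0.58 for the wild-type cell types, but −0.52, 0.14 and −0.49 between the thymocyte genotypes and −0.39, 0.09 and −0.43 between the knockout cell types. The labels do not say what a number marks. The test was checked on simulated data. With each gene's noise taken from 3 arrays, false calls exceeded the threshold in all comparisons. The noise was then pooled over the 4 groups, after which they were near it, and the test was not changed. Pooled noise is the same in every group, which the test itself assumes, so this result does not answer the excess seen first. Noise was simulated independently for each array, so the simulation does not check the test for deviations that arrays share. Python 3.11.15 and matplotlib 3.10.9 drew the plots.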

Additional observations from a re-analysis of the deposited data

Results flagged for a closer look

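10 of the genes had genotype effects that differed between leukaemia and thymocytes by the test of that difference (limma, all 12 arrays). Only the wild-type leukaemias had Xist above the level of the other groups, so sex cannot be told apart from this difference. The effect was lower in leukaemia than in thymocytes for Scd1, at −1.65 (adjusted p = 0.000174), Fasn, at −1.16 (adjusted p = 0.000519), Pmvk, at −1.32 (adjusted p = 0.00168), Acaca, at −1.78 (adjusted p = 0.00248), Insig1, at −2.15 (adjusted p = 0.00442), Idi1, at −1.65 (adjusted p = 0.0078), Sqle, at −1.20 (adjusted p = 0.023), Lss, at −0.97 (adjusted p = 0.025), and Mvk, at −0.81 (adjusted p = 0.0327). Insig2 was at 1.61 (adjusted p = 0.0311). Scd1 and Insig1 passed in all 27 alternatives, Pmvk, Idi1, Fasn and Acaca in 26, Sqle in 23, Lss in 21, and Mvk and Insig2 in 18. None passed in thymocytes alone, where the effect was above 0 in 6 of the 9 that were lower, namely Scd1, Pmvk, Acaca, Insig1, Idi1 and Lss. Scd1 was below background in knockout leukaemias and in both thymocyte groups, so its value is a fitted difference and not a measured size.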

How the results depend on the processing

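A direction was counted as turned only where a gene passed in the main or the alternative fit, and none turned. Genes that passed kept their sign in every alternative, 17 of 17 between leukaemia genotypes (23 alternatives), 19 of 19 between wild-type cell types and 14 of 14 between knockout cell types (22 each) and 10 of 10 for the difference of effects (27). They passed in every alternative in 0, 15, 8 and 2 cases. Between leukaemia genotypes the replicate block gave 22 lower, arrays without signal from the added controls 0 higher and 0 lower, and leaving out each array 0 to 3 higher and 8 to 16 lower. Between wild-type cell types the replicate block, the control set as a block and the Gapdh ratio as a covariate each gave 26 higher. Between knockout cell types there were 2 higher with quantile normalization, 5 with the control set as a block and 5 on arrays without control signal; leaving out each array gave 2 to 8. For the difference of effects, 2 were higher with quantile normalization, 75th percentile centring, the array median as filter, averaged probe sets, eBayes with trend and robust, the replicate block or an added constant of 1. The arrays without control signal gave 0 higher and 3 lower, the Gapdh covariate 3 higher and 14 lower, and leaving out each array 0 to 2 higher and 7 to 10 lower. Shares of all genes are not given for most fits in this section, so the counts show only that the calls depended on the setting. Those shares can move too. Between wild-type cell types 19.7% of all genes were higher in the main fit and 26.2% with the replicate block. The causes were not tested. Equal numbers did not pair the thymocyte genotypes or the knockout cell types, where the replicate block gave 0 and 0, and 6 higher and 6 lower.

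The first versions of the 2 settings settled after seeing results are alternatives added then. Taking the percentile over genes tested 14276 genes and gave 13 lower between leukaemia genotypes, without Nsdhl; picking probe sets by linear means changed 105 genes and none of these 31; both together also gave 13 lower. Fits could not be made for arrays with control signal in the thymocyte genotype, knockout cell type or difference of effects, nor for arrays without it between wild-type cell types.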
